A study of Mus musculus with 235 samples.

Results

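Transcripts of 10 Kruppel-like factor (KLF) genes were followed in 8 brain regions of mice given dexamethasone, a synthetic glucocorticoid. The 10 genes are Klf9, Klf15, Klf2, Klf4, Klf6, Klf7, Klf10, Klf13, Klf16 and Klf3. They were chosen by name, without a threshold, and are 10 of the 27998 genes of the count table. All 10 have a row in it, and 8 had counts in every library, while Klf4 was at 0 in 1 library and Klf10 in 5.

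The animals were 30 male C57Bl/6 mice aged 3 months, an inbred strain with no engineered allele named. Dexamethasone at 10 mg/kg was injected into the peritoneum of 15 mice (DEX) and 0.9% saline into the other 15 (CNTRL, called vehicle here). Tissue was taken 4 h later, from perfused brains. The labels name the regions PFC, AMY, PVN, CER, dCA1, vCA1, dDG and vDG and do not expand these names. Each library comes from the punch of 1 region of 1 animal, and a group of region and arm holds 13 to 15 animals. A punch holds all the cell types of its tissue, so fewer cells of a type and less RNA per cell cannot be told apart in any of the differences given here. The labels name no other limit of the model, and only males and 1 time point were studied.

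KLF proteins are transcription factors that bind DNA through zinc fingers at their carboxyl end, and recognise GC boxes and CACC boxes in promoters and enhancers. Their amino-terminal parts differ and set whether a member activates or represses. Klf9, Klf10, Klf13 and Klf16 recruit the Sin3 corepressor, Klf3 recruits the CtBP corepressors, and Klf2, Klf4, Klf6 and Klf7 are mostly known as activators. Klf9 is a known target gene of corticosteroid and thyroid hormone receptors in neurons, and Klf15 a known glucocorticoid target in muscle and liver. Klf4 and Klf9 are known to restrain axon growth in neurons, while Klf6 and Klf7 are known to promote it.

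The promoter windows below, each from 250 bases before to 50 bases after the start of the gene, are shown for Klf9 and Klf15, the members that rose in every region, and for Klf7, a promoter of axon growth that fell in 4 regions. They are RefSeq sequences of GRCm38.p6, written 5′ to 3′ on the strand of the gene. Capitals mark the KLF motifs GGGCGG (GC box) and CACCC (CACC box), or their reverse complements, and matches may overlap. The RefSeq start of Klf7 lies inside the span that the count table gives for the gene.
Klf9, chr19:23140976-23141275, plus strand: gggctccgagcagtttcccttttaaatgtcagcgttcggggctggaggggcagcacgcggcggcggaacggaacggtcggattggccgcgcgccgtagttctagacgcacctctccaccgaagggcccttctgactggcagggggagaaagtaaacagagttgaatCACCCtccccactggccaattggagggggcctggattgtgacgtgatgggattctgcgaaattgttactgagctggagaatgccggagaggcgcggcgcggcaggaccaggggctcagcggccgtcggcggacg
Klf15, chr6:90462326-90462625, plus strand: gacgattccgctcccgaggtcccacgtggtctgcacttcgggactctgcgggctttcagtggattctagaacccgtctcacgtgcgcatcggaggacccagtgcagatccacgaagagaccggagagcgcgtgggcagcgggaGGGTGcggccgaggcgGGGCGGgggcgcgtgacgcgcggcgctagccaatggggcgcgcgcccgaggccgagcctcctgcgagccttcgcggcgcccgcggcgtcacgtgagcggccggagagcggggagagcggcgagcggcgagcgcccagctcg
Klf7, chr1:64121340-64121639, minus strand: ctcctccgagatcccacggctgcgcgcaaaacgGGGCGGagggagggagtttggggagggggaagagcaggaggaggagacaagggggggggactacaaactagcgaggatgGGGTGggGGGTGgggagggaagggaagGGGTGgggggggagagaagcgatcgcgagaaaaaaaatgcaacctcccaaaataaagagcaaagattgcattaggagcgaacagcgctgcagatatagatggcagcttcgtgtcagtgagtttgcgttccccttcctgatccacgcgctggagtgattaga

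RefSeq windows were matched for 8 of the 10 members, all but Klf10 and Klf16. The GC content of these 8 windows ran from 58.3% to 76.7%, beside a median of 52.7% over the 32851 promoter windows of the table. The Klf9 window held 1 CACC box and no GC box, the Klf15 window 1 of each, and the Klf7 window 3 CACC boxes and 1 GC box. Of all promoter windows, 35.7% held a GC box and 57.5% a CACC box on either strand. The palindrome of AGAACA and TGTTCT with any 3 bases between them, the form to which a pair of glucocorticoid receptors binds, was in none of the 8 member windows and in 3 of the 32851 windows. The shorter ACANNNTGT was also in none of the 8, and 6.85% of all windows held it. For TGTTCT alone, none of the 8 had a match, beside 19.0% of all windows. These letters were searched on both strands in these windows only.

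Counts per library ran from 96 to 1141 for Klf9, but only from 0 to 34 for Klf10 and from 0 to 20 for Klf4, so the precision of a library's value differs widely among the members. Library totals were 268538 to 1451422 counts. Levels are CPM, the usual scaling of a count to its library's total, here with TMM factors. The count table gives no transcript lengths for the 3′ end reads, and levels are not compared between genes. As a check of the treatment, the glucocorticoid target genes Fkbp5 (log2 difference 1.65 to 2.79), Tsc22d3 (0.85 to 1.39) and Sgk1 (0.64 to 1.27) rose in all 8 regions. Several libraries stood apart. The dCA1 vehicle library 4 had the lowest TMM factor of all libraries, 0.795, at 297943 counts. Prox1, a gene of dentate granule cells, had a median of 528 CPM in vehicle dCA1 and 422 CPM in vehicle dDG, so the markers do not separate those punches. Gabra6, a gene of cerebellar granule cells, was at 0 in all 15 vehicle libraries of CER, and Pcp2, a Purkinje cell gene, had a mean of 0.51 CPM there. The sum of 4 cerebellar markers in CER had medians of 18.9 CPM in vehicle and 19.2 CPM after dexamethasone, so these markers are very low in the punches with that label. Summed markers of dentate or cerebellar cells stood apart in 8 libraries, 1 of dCA1, 2 of dDG, 1 of vCA1 and 4 of vDG. Leaving them out changed no call of a member that was still tested, and took Klf10 in vCA1 below the filter on low counts. The summed level of 4 choroid plexus genes, markers of a tissue that lies within the ventricles, varied most in dDG, from 45.2 to 11460.5 CPM in vehicle and from 45.5 to 13250.4 CPM after dexamethasone, and reached 6176 CPM in AMY. One of them, Ttr, fell in vCA1 (log2 difference -2.27, adjusted p = 0.00692; -0.98, adjusted p = 0.150 with the replicate number as a block), where the sums ran from 25.9 to 1454 CPM in vehicle and from 19.3 to 98.4 CPM after dexamethasone. With the choroid plexus level as a covariate, all 36 calls of members given below held and no other member passed.

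After dexamethasone, Klf9 and Klf15 rose in all 8 regions and Klf2 rose in 5. Klf7 and Klf3 fell in 4 regions each, and Klf10 fell in 3. The filter on low counts favoured the regions where vehicle Klf10 was high, and without the filter it passed in 3 of 8 regions. Klf13 rose in 2 regions, Klf16 fell in 2, Klf6 passed in none and Klf4 was too low to be tested. Here rose or fell means an adjusted p below 0.05 in edgeR's quasi-likelihood test with Benjamini-Hochberg adjustment over all genes tested in the region, and every adjusted p below is of that kind unless another source is named. Of 67 pairs of a member and a region that passed the filter on low counts, 36 passed the test, 23 higher and 13 lower. The other pairs, of Klf4 in every region and of Klf10 in 5, had too few counts for the filter.

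In PFC 7 of 9 tested members passed, beside 6.14% of all genes tested there: 4 rose (3.86% of all genes rose) and 3 fell (2.28%). PVN had 5 of 8 (5.63%), with 4 rising (3.57%) and 1 falling (2.06%). AMY had 4 of 8 (5.62%), with 3 rising (3.54%) and 1 falling (2.08%), and CER had 3 of 8 (6.18%), with 2 rising (3.90%) and 1 falling (2.28%). In vCA1 6 of 9 passed (5.45%), 3 rising (3.41%) and 3 falling (2.04%), and in dCA1 4 of 9 (4.68%), 2 rising (2.57%) and 2 falling (2.11%). In vDG 4 of 8 passed (3.93%), 3 rising (2.64%) and 1 falling (1.29%), and in dDG 3 of 8 (3.70%), 2 rising (2.33%) and 1 falling (1.37%). The members were chosen with earlier results of these data known, so nothing is read from their share beside that of all genes. The median log2 difference of the tested members lay between -0.02 (PFC) and 0.24 (AMY), and that of all genes tested between -0.02 (CER) and 0.00 (PVN). In PFC and dCA1, where the members' median was near 0, 4 and 2 members rose while 3 and 2 fell.

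**Figure D1:**
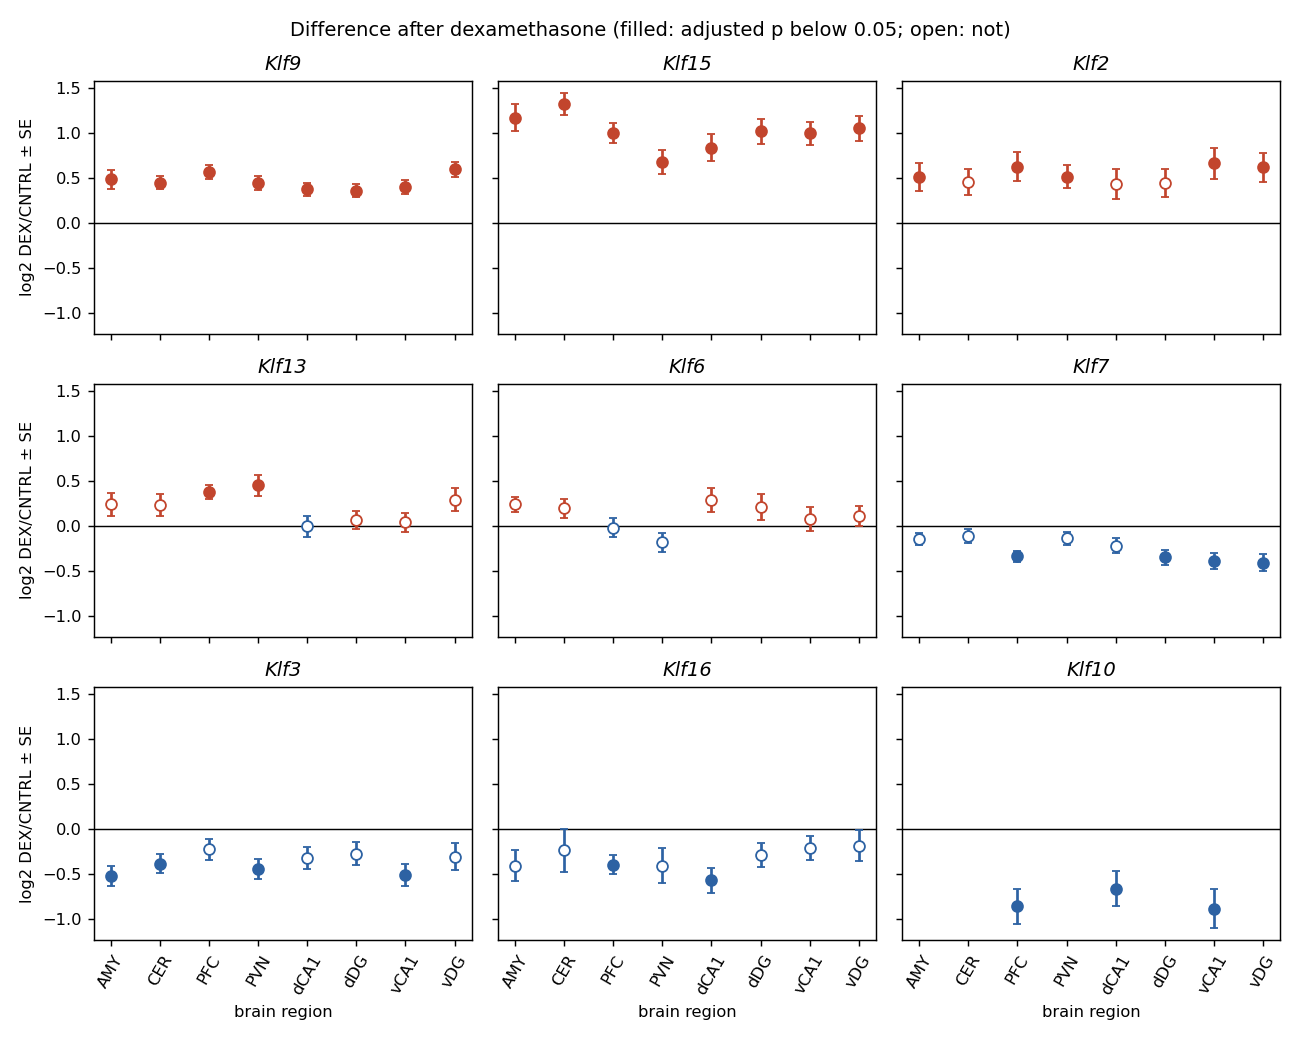
Log2 difference of dexamethasone from vehicle (y axis, ± SE) in each brain region (x axis) for the 9 members tested in at least 1 region; filled points passed the adjusted threshold of 0.05, open points did not, red is above 0 and blue below. Klf9 and Klf15 lie above 0 with filled points in all 8 regions, while Klf7, Klf3, Klf16 and Klf10 lie below 0 wherever they were tested.

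Klf9 (ENSMUSG00000033863), on GRCm38 chromosome 19 from 23141226 to 23166911 on the plus strand, rose by 1.28-fold to 1.51-fold. In AMY the vehicle libraries held 342 to 722 CPM (median 523) and the dexamethasone libraries 603 to 949.9 CPM (median 729). CER gave 379 to 743 CPM (median 494) in vehicle and 589.9 to 795 CPM (median 679) after dexamethasone. PFC gave 416 to 734 CPM (median 548) in vehicle and 677 to 979 CPM (median 828) after dexamethasone. In these 3 regions every dexamethasone library lay above the vehicle median, though the groups overlapped, and 13 of the 14 PFC dexamethasone libraries lay above the highest vehicle library. The log2 difference was 0.48 ± 0.11 (SE) in AMY (adjusted p = 0.00195), 0.45 ± 0.08 in CER (adjusted p = 4.09e-05) and 0.56 ± 0.07 in PFC (adjusted p = 1.61e-07).

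PVN vehicle libraries held Klf9 at 333 to 608 CPM (median 524), and those after dexamethasone at 529 to 861 CPM (median 708). Klf9 in dCA1 was at 647 to 946 CPM (median 773) in vehicle and 877 to 1101 CPM (median 1018) after dexamethasone. Klf9 in dDG was at 643 to 1161 CPM (median 777) in vehicle and 899.6 to 1139.7 CPM (median 1014) after dexamethasone. A vehicle library of dDG exceeded all the dexamethasone libraries there, and all but 1 of the others lay below the lowest of them. Klf9 in vCA1 was at 459.5 to 806 CPM (median 627) in vehicle and 577 to 995 CPM (median 853) after dexamethasone. Klf9 in vDG was at 404 to 791 CPM (median 572) in vehicle and 768 to 1096 CPM (median 853) after dexamethasone. Over the 8 regions, 116 of 117 dexamethasone libraries lay above the vehicle median of their region for Klf9, 70 of them above its highest vehicle library, and the groups overlapped in all 8 regions. Log2 differences were 0.59 ± 0.09 in vDG, 0.44 ± 0.08 in PVN, 0.40 ± 0.08 in vCA1, 0.37 ± 0.07 in dCA1 and 0.36 ± 0.07 in dDG, and the largest adjusted p of the 8 regions was 0.00195, in AMY. The spread among libraries was smaller after dexamethasone in all 8 regions as a CV (SD over mean), for example 26.7% in vehicle and 13.5% after dexamethasone in AMY; no test of the spread was made.

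Klf15 (ENSMUSG00000030087; GRCm38 chromosome 6, 90462576 to 90475238, plus strand), a regulator of amino acid breakdown in fasting muscle and liver, had the largest log2 differences of the members tested in each region. Vehicle libraries of CER held 22.3 to 58.9 CPM (median 31.1), and the dexamethasone libraries 61.3 to 117 CPM (median 89.6). Here the groups did not overlap, the only region and member in which that held. How many of all genes had groups without overlap was not counted, so nothing is read from this. In AMY Klf15 was at 17.7 to 61.1 CPM (median 37.7) in vehicle and 49.6 to 115 CPM (median 81.5) after dexamethasone. In PFC it was at 19.6 to 48.7 CPM (median 32.7) in vehicle and 42.4 to 81.6 CPM (median 65.6) after dexamethasone. Only 2 dexamethasone libraries of AMY and 1 of PFC lay within the vehicle range. The log2 difference was 1.33 ± 0.12 in CER (adjusted p = 4.38e-11), 1.17 ± 0.15 in AMY (adjusted p = 2.29e-07) and 1.00 ± 0.11 in PFC (adjusted p = 3.04e-09), or 2.51-fold, 2.25-fold and 2.00-fold.

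The smallest rise of Klf15 was in PVN, at 23.2 to 67.7 CPM (median 39.8) in vehicle and 37.1 to 89.97 CPM (median 65.1) after dexamethasone. In dCA1 Klf15 was at 16.9 to 60.1 CPM (median 36.2) in vehicle and 42.8 to 87.9 CPM (median 61.8) after dexamethasone. In dDG Klf15 was at 17.8 to 51.4 CPM (median 34.1) in vehicle and 44.4 to 101 CPM (median 59.6) after dexamethasone. In PVN 5 of 15 dexamethasone libraries exceeded the highest vehicle library, in dCA1 7 of 13 and in dDG 11 of 15. Klf15 in vCA1 was at 25.4 to 48.3 CPM (median 40.3) in vehicle and 26.2 to 95.6 CPM (median 82.1) after dexamethasone. Klf15 in vDG was at 18.0 to 64.0 CPM (median 40.9) in vehicle and 45.0 to 95.8 CPM (median 85.3) after dexamethasone. The log2 difference was 0.68 ± 0.13 in PVN (adjusted p = 0.000333, the largest of the 8), 1.05 ± 0.14 in vDG, 1.02 ± 0.14 in dDG, 0.99 ± 0.13 in vCA1 and 0.84 ± 0.15 in dCA1. Over all regions, 115 of 117 dexamethasone libraries lay above the vehicle median for Klf15 and 91 above the highest vehicle library of the region.

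**Figure D2:**
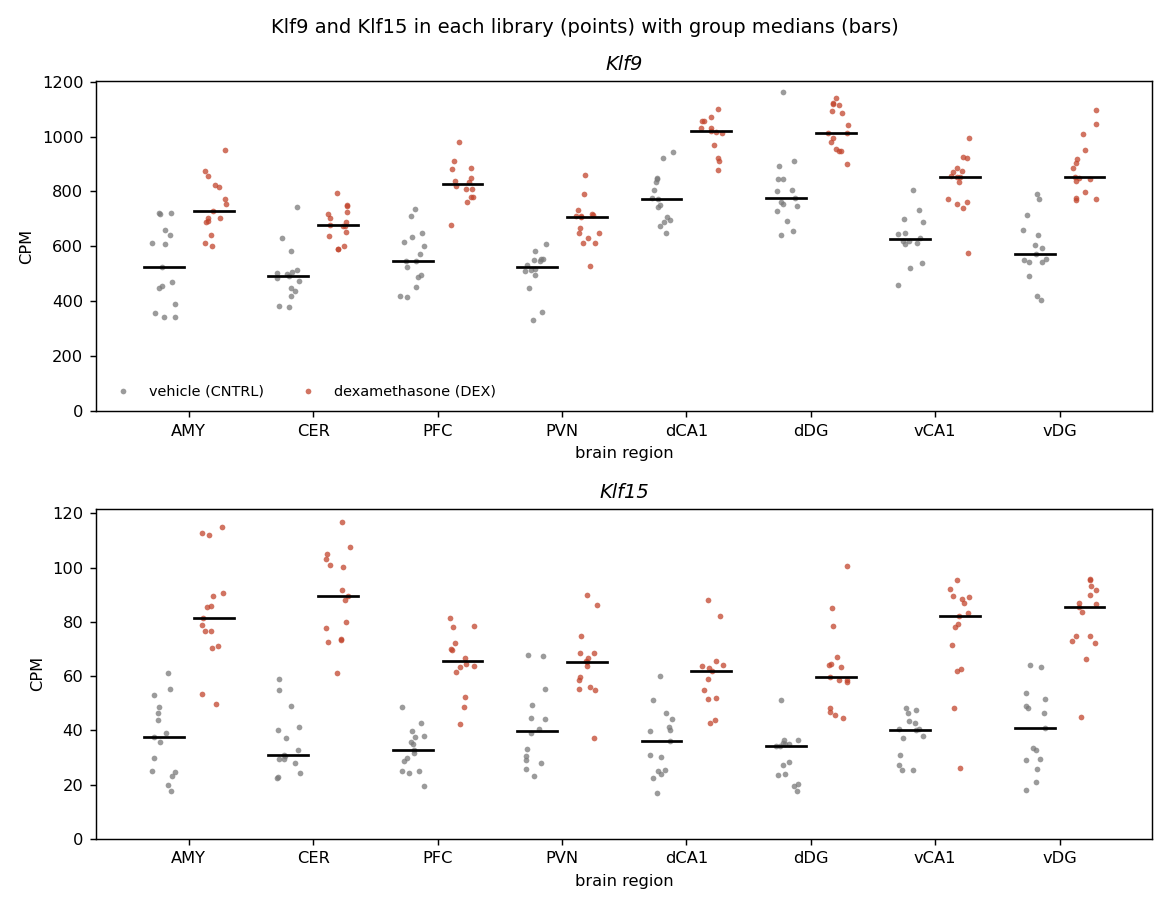
CPM (y axis, from 0) of Klf9 and Klf15 in every library (points) of each region (x axis), grey for vehicle and red for dexamethasone, with bars at the group medians. The red medians lie above the grey ones in all 8 regions for both genes, and the 15 red Klf15 points of CER lie above all grey ones there.

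Genes that rose in all 8 regions made up 0.883% of the 7924 genes tested in every region (70 genes), and Klf9 and Klf15 are among them. No member fell in all 8 regions, as 0.391% of those genes did. Called or not, the fitted log2 difference was above 0 in all 8 regions for Klf9, Klf15 and Klf2, as for 7.51% of those genes, and below 0 in all 8 for Klf7, Klf3 and Klf16, as for 7.74%. The sizes of both rises can be set beside the other genes that rose. In PFC 13.0% of the genes that rose had a larger log2 difference than Klf15, and in PVN, where its share was highest, 42.0%. For Klf9 the share was 50.7% in PFC and 93.5% in dDG, its lowest and highest values. In every region, then, more of the genes that rose had a larger difference than Klf9 than had a smaller one.

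Klf2 (ENSMUSG00000055148; GRCm38 chromosome 8, 72319033 to 72321656, plus strand) is known as a factor of the vessel lining that is induced by laminar blood flow. It rose in AMY, PFC, PVN, vCA1 and vDG and had a log2 difference above 0 in the other 3 regions. In PFC it was at 9.08 to 45.1 CPM (median 21.9) in vehicle and 18.1 to 54.5 CPM (median 36.7) after dexamethasone, a log2 difference of 0.62 ± 0.17 (adjusted p = 0.0112). In vCA1 it was at 7.83 to 44.2 CPM (median 24.2) in vehicle and 15.9 to 52.9 CPM (median 38.8) after dexamethasone, a log2 difference of 0.66 ± 0.18 (adjusted p = 0.0138). The groups overlapped in both regions, with 2 of 14 and 4 of 15 dexamethasone libraries above the highest vehicle library.

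Klf2 in vDG was at 18.0 to 44.2 CPM (median 29.5) in vehicle and 25.7 to 110.1 CPM (median 43.4) after dexamethasone (0.62 ± 0.16, adjusted p = 0.0152). The highest of these libraries, DEX 3, had 33 Klf2 counts, and without it the log2 difference was 0.52 (adjusted p = 0.0209). In PVN Klf2 was at 12.8 to 31.6 CPM (median 22.2) in vehicle and 22.1 to 47.7 CPM (median 30.5) after dexamethasone (0.51 ± 0.13, adjusted p = 0.00749). AMY gave 10.6 to 47.6 CPM (median 21.8) in vehicle and 21.4 to 43.9 CPM (median 30.3) after dexamethasone (0.51 ± 0.15, adjusted p = 0.0358). In AMY no dexamethasone library exceeded the highest vehicle library, and with RNA integrity as a covariate the adjusted p of Klf2 was 0.0606. In CER, dCA1 and dDG the Klf2 differences of 0.45, 0.43 and 0.44 had unadjusted p of 0.00335, 0.0122 and 0.00875 and adjusted p of 0.0528, 0.161 and 0.143. The dCA1 value turns on vehicle library 4, with 71.7 CPM of Klf2 from 17 counts: without it, as in the libraries of the authors' tables, the log2 difference was 0.52 (adjusted p = 0.0248). Klf2 in vCA1 was at 0.64 (adjusted p = 0.0537) with the replicate number as a block and at an adjusted p of 0.116 with the dentate marker level as a covariate. With the same block Klf2 passed in CER, at 0.48 (adjusted p = 0.0154). Over all regions, 105 of 117 dexamethasone libraries lay above the vehicle median for Klf2.

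Endothelial markers were measured beside Klf2. Of 10 endothelial genes, 7 were tested in all 8 regions, and 27 of these 56 pairs fell and none rose, with 31 lower and 4 higher at an unadjusted p below 0.05. Of all genes tested, 1.29% to 2.28% fell by region. Flt1 (log2 difference -0.80 to -0.55), Kdr (-2.13 to -1.26) and Slco1a4 (-0.93 to -0.62) fell in 8 regions and Itm2a in 3, while Pecam1 (-0.41 to 0.09), Esam (-0.22 to 0.41, smallest unadjusted p = 0.0162 in vDG) and Ly6c1 (0.02 to 0.33, smallest unadjusted p = 0.0237) passed in none. The summed level of the 10 genes had vehicle medians of 423 to 567 CPM and dexamethasone medians of 296 to 405 CPM over the regions, and single libraries ran from 293 to 1072 CPM in vehicle and from 228 to 578 CPM after dexamethasone. Of the 10 genes, Cldn5, Tek and Cdh5 were below the filter everywhere, though none was at 0 in all libraries. For mural cells, 32 pairs of 5 genes were tested and none passed with edgeR or DESeq2, though 7 had an unadjusted p below 0.05. Of 8 microglial genes, another type known to hold Klf2, 16 of 50 pairs fell and none rose, with Cx3cr1 and P2ry12 falling in all 8 regions. Among 48 neuronal pairs none passed with edgeR or DESeq2, with 2 at an unadjusted p below 0.05. The part of these cell types in the rise of Klf2 was not tested.

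**Figure D3:**
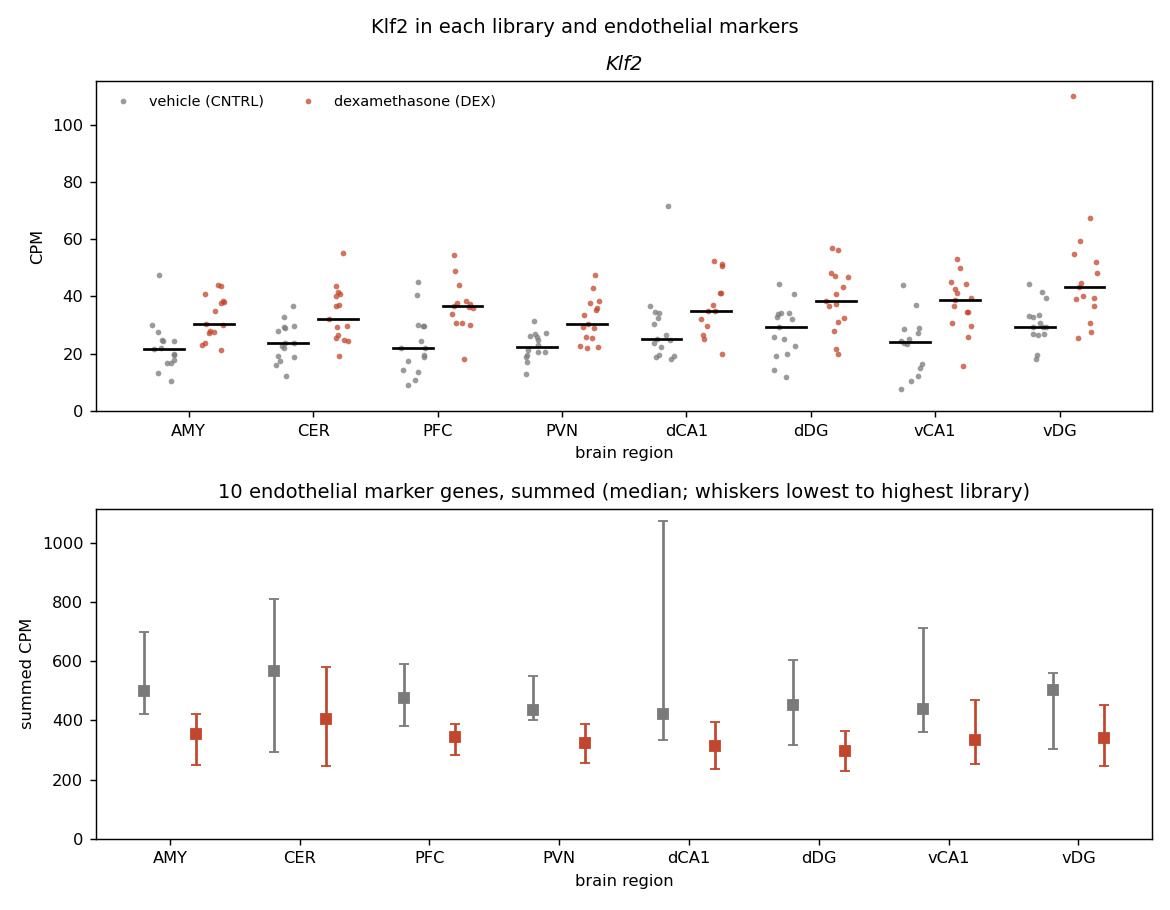
Upper panel, CPM of Klf2 (y axis, from 0) in every library by region (x axis), grey for vehicle and red for dexamethasone, with bars at the medians; lower panel, summed CPM of 10 endothelial marker genes as the median with whiskers from the lowest to the highest library. The Klf2 medians are higher after dexamethasone in all 8 regions, and the medians of the summed markers are lower in all 8.

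Genes around Klf2 and its close relative Klf4 in vessel cells were taken as 2 lists. Upstream of both genes is a kinase cascade ending in the MEF2 factors, held in check by the CCM proteins. Of 62 pairs tested over 9 such genes 1 passed, a smaller share than that of all genes (3.70% to 6.18% by region), and at an unadjusted p below 0.05 there were 8 lower and 1 higher. The pair that passed was Mef2c in dCA1, which fell by 0.59 on the log2 scale (SE 0.11, adjusted p = 0.000243). Among 4 endothelial genes known as targets of Klf2 and Klf4, S1pr1, a sphingosine phosphate receptor, fell in all 8 regions (-0.63 to -0.35). Vcam1, the adhesion molecule, passed in none of 8, Thbd was tested in vDG only and did not pass, and Nos3 was not tested. The smallest unadjusted p of Vcam1 was 0.00384 in PFC, at a log2 difference of 0.39. With the replicate number as a block, Vcam1 passed in PFC (0.35, adjusted p = 0.00580) and Thbd in vDG (-0.90, adjusted p = 0.0216).

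Klf4 (ENSMUSG00000003032; GRCm38 chromosome 4, 55527143 to 55532466, minus strand), the second flow-induced endothelial factor and a restrainer of axon growth, was too low for a test. Its group medians lay between 6.59 CPM (dCA1 after dexamethasone) and 11.9 CPM (AMY after dexamethasone), or 4 to 10 counts per library over all groups. Groups overlapped in all 8 regions, and 57 of 117 dexamethasone libraries lay above the vehicle median. With no filter on low counts, Klf4 passed in no region with edgeR, and its only unadjusted p below 0.05 was 0.0394 in dDG, at a log2 difference of -0.62 (adjusted p = 0.397). Differences of Klf4 are not detectable at this depth unless large.

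Of the members known to promote axon growth, Klf7 and Klf6, the former is given first. Klf7 (ENSMUSG00000025959; GRCm38 chromosome 1, 64029447 to 64122282, minus strand) fell in PFC, dDG, vCA1 and vDG. In PFC it was at 204 to 258 CPM (median 236) in vehicle and 155 to 217 CPM (median 183) after dexamethasone, and 11 of 14 dexamethasone libraries lay below the lowest vehicle library. The log2 difference was -0.34 ± 0.06 (adjusted p = 0.000167). In vDG Klf7 was at 169.6 to 311 CPM (median 246) in vehicle and 123 to 230.2 CPM (median 186) after dexamethasone, with every dexamethasone library below the vehicle median (-0.41 ± 0.09, adjusted p = 0.00349). In vCA1 Klf7 was at 164 to 313 CPM (median 222) in vehicle and 127 to 212 CPM (median 167) after dexamethasone (-0.39 ± 0.09, adjusted p = 0.00239). There too every dexamethasone library lay below the vehicle median. With the dentate marker level as a covariate, the vCA1 difference of Klf7 was -0.29 (adjusted p = 0.108), and summed dentate markers had medians of 124 CPM in vehicle and 196 CPM after dexamethasone in that region. In dDG Klf7 was at 148 to 269 CPM (median 187) in vehicle and 122 to 212 CPM (median 154) after dexamethasone (-0.35 ± 0.08, adjusted p = 0.00832).

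In the other regions Klf7 had log2 differences of -0.15 ± 0.06 in AMY (adjusted p = 0.241), -0.11 ± 0.07 in CER (adjusted p = 0.566), -0.14 ± 0.07 in PVN (adjusted p = 0.343) and -0.22 ± 0.08 in dCA1 (adjusted p = 0.162). Unadjusted, 7 of the 8 p-values were below 0.05, all but that of CER, where the dexamethasone median of 233 CPM was above the vehicle median of 230.3 CPM. Of the exon bases of Klf7, 39.3% overlap Gm26649 on the opposite strand, which had 5 counts in all libraries together. Whether the counting used strand is not given in the sources used here.

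Klf6 (ENSMUSG00000000078; GRCm38 chromosome 13, 5861489 to 5870393, plus strand), which is induced after injury in many cell types, passed in none of 8 regions with edgeR and in none with DESeq2. Its log2 differences ran from -0.19 in PVN to 0.29 in dCA1. Unadjusted p-values below 0.05 were those of AMY (0.00875, adjusted p = 0.118) and dCA1 (0.0376, adjusted p = 0.320). In AMY Klf6 was at 46.7 to 76.2 CPM (median 63.3) in vehicle and 53.7 to 98.2 CPM (median 79.8) after dexamethasone, with 8 of 15 dexamethasone libraries above the highest vehicle library and 12 of 15 above the vehicle median.

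Klf3 (ENSMUSG00000029178; GRCm38 chromosome 5, 64803388 to 64832901, plus strand), the CtBP-binding repressor, fell in AMY, CER, PVN and vCA1. In AMY it was at 35.1 to 63.9 CPM (median 55.7) in vehicle and 24.9 to 43.9 CPM (median 39.4) after dexamethasone, a log2 difference of -0.53 ± 0.11 (adjusted p = 0.000763). In vCA1 it was at 41.6 to 88.3 CPM (median 64.7) in vehicle and 24.4 to 65.9 CPM (median 46.3) after dexamethasone (-0.52 ± 0.12, adjusted p = 0.00450). Every AMY dexamethasone library lay below the vehicle median, and 6 of 15 lay below the lowest vehicle library. In PVN Klf3 was at 38.5 to 63.7 CPM (median 51.0) in vehicle and 22.8 to 61.9 CPM (median 35.4) after dexamethasone (-0.44 ± 0.11, adjusted p = 0.00586). In CER Klf3 was at 42.5 to 84.6 CPM (median 62.2) in vehicle and 32.4 to 60.2 CPM (median 49.7) after dexamethasone (-0.39 ± 0.11, adjusted p = 0.0176). With surrogate variables in the CER fit the adjusted p of Klf3 was 0.0689. Klf3 did not pass in PFC, dCA1, dDG and vDG, at log2 differences of -0.23, -0.32, -0.28 and -0.31 and unadjusted p of 0.0551, 0.0127, 0.0390 and 0.0498. In dCA1 the vehicle library 4 stood far above the others in Klf3, at 173 CPM.

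Among the Sin3-binding relatives of Klf9, Klf10 (ENSMUSG00000037465; GRCm38 chromosome 15, 38294413 to 38300707, minus strand), an early gene of TGF-beta signalling, passed the filter on low counts in 3 regions, PFC, vCA1 and dCA1, and fell in them. Its median counts there were 18, 14.5 and 11 in vehicle and 8.5, 7 and 9 after dexamethasone, so the filter was met more easily by the vehicle group, and the number of these regions supports no direction. In PFC Klf10 was at 10.4 to 33.2 CPM (median 22.5) in vehicle and 2.03 to 21.1 CPM (median 10.0) after dexamethasone. In vCA1 Klf10 was at 6.18 to 30.2 CPM (median 16.3) in vehicle and 3.74 to 18.5 CPM (median 9.45) after dexamethasone. In dCA1 Klf10 was at 11.0 to 24.7 CPM (median 18.0) in vehicle and 1.37 to 18.3 CPM (median 12.2) after dexamethasone. Every PFC dexamethasone library lay below the vehicle median, and 8 of 14 lay below the lowest vehicle library, while 1 library of vCA1 and 1 of dCA1 exceeded the vehicle median. The log2 differences were -0.86 ± 0.19 in PFC (adjusted p = 0.00224), -0.89 ± 0.22 in vCA1 (adjusted p = 0.00606) and -0.67 ± 0.19 in dCA1 (adjusted p = 0.0303), or 0.550, 0.539 and 0.630 times the vehicle level. The dCA1 call was lost with the dentate marker level as a covariate (-0.49, adjusted p = 0.0908) and with no filter on low counts (adjusted p = 0.0599).

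With no filter on low counts, Klf10 could be tested in all 8 regions, and its log2 difference was below 0 in each. It passed in PFC (4.06% of all genes passed there without the filter), vCA1 (3.76% of all genes) and vDG (2.69%). In vDG it was at 4.90 to 23.4 CPM (median 15.3) in vehicle and 3.04 to 13.9 CPM (median 6.16) after dexamethasone (-0.90, adjusted p = 0.0182). The other regions did not pass, with adjusted p of 0.0720 in AMY at a log2 difference of -1.01 (3.45% of all genes passed), 0.238 in CER at -0.80 (3.70%), 0.640 in PVN at -0.44 (3.54%), 0.0599 in dCA1 at -0.66 (3.03%) and 0.657 in dDG at -0.28 (2.44%). In AMY Klf10 was at 2.38 to 24.5 CPM (median 10.6) in vehicle and 0 to 13.8 CPM (median 5.37) after dexamethasone, and 1 of 15 dexamethasone libraries exceeded the vehicle median. A median library of PVN or CER held only 1 to 3 counts of Klf10.

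Klf13 (ENSMUSG00000052040; GRCm38 chromosome 7, 63886351 to 63938915, minus strand) rose in PFC and PVN. In PFC it was at 142 to 269.8 CPM (median 198) in vehicle and 211 to 319 CPM (median 273) after dexamethasone, with 8 of 14 dexamethasone libraries above the highest vehicle library (0.37 ± 0.08, adjusted p = 0.00109). In PVN it was at 43.5 to 123 CPM (median 96.8) in vehicle and 70.4 to 169 CPM (median 122) after dexamethasone (0.45 ± 0.12, adjusted p = 0.0104). In both regions most dexamethasone libraries lay above the vehicle median, 14 of 14 and 13 of 15. The other 6 regions had log2 differences of Klf13 from -0.01 in dCA1 to 0.29 in vDG (unadjusted p = 0.0254, adjusted p = 0.293). The highest Klf13 library of dCA1 was again vehicle library 4, at 684 CPM.

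Klf16 (ENSMUSG00000035397; GRCm38 chromosome 10, 80567124 to 80577321, minus strand) fell in dCA1 and PFC, and its log2 difference was below 0 in all 8 regions. In dCA1 it was at 35.9 to 127 CPM (median 62.5) in vehicle and 27.6 to 60.1 CPM (median 42.7) after dexamethasone, and every dexamethasone library lay below the vehicle median (-0.58 ± 0.14, adjusted p = 0.00856). In PFC it was at 51.5 to 75.2 CPM (median 58.4) in vehicle and 30.9 to 67.3 CPM (median 44.3) after dexamethasone, with 9 of 14 dexamethasone libraries below the lowest vehicle library (-0.40 ± 0.11, adjusted p = 0.0114). In the other regions Klf16 differed by -0.41 to -0.19 on the log2 scale, with adjusted p from 0.231 to 0.837, and in CER 10 of 15 dexamethasone libraries were above the vehicle median although the fitted difference was -0.24. Over the 8 regions, 92 of 117 dexamethasone libraries lay below the vehicle median of Klf16.

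**Figure D4:**
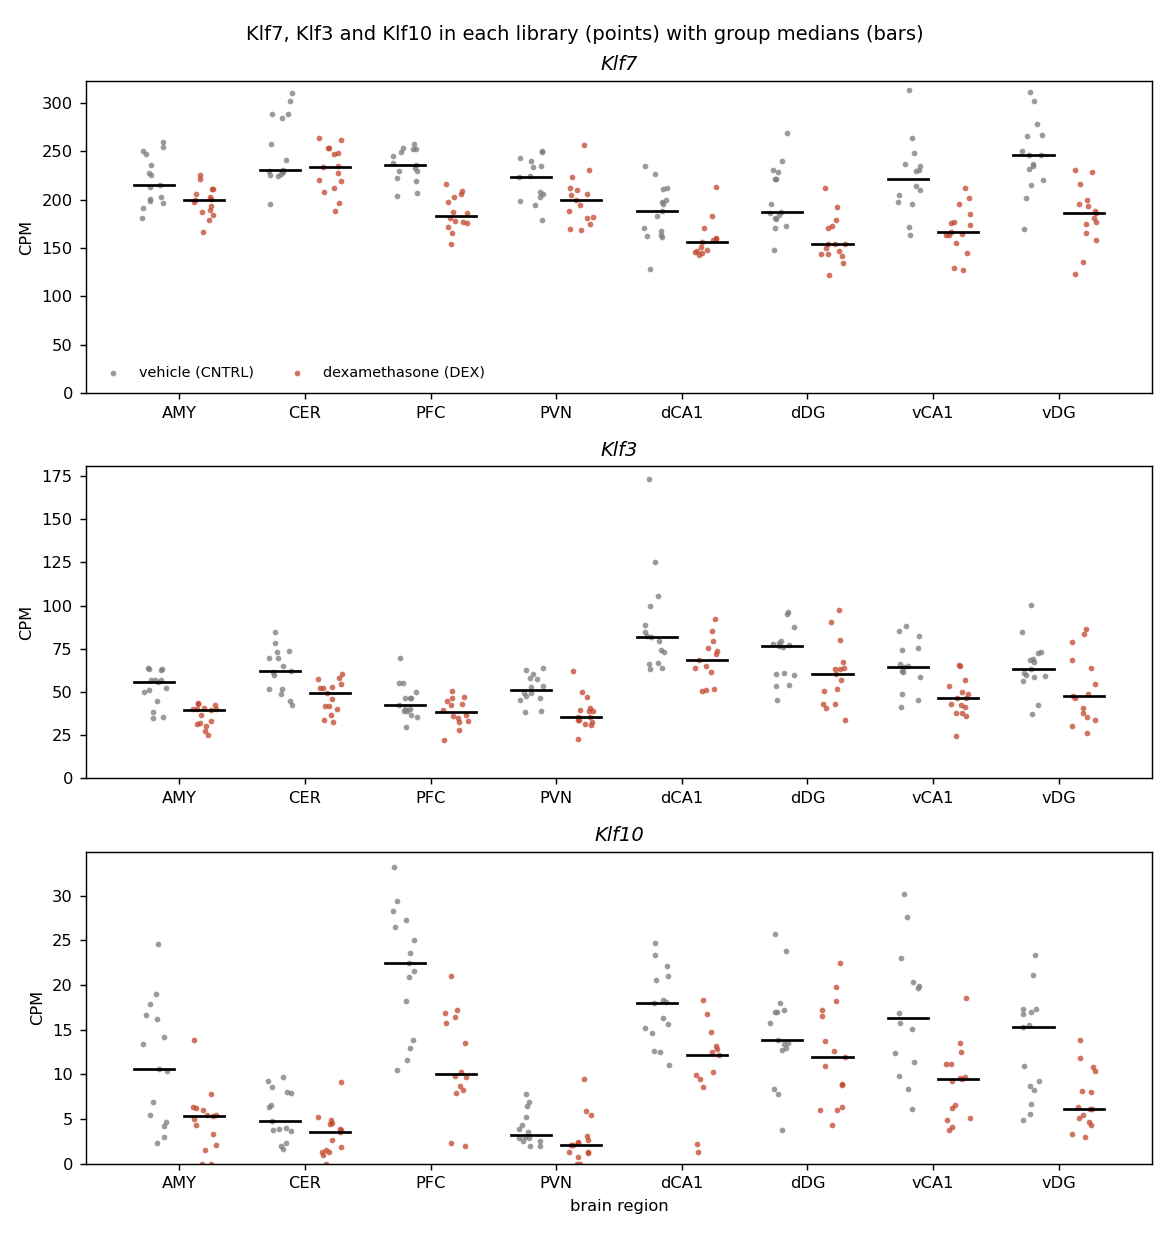
CPM (y axis, from 0) of Klf7, Klf3 and Klf10 in every library (points) by region (x axis), grey for vehicle and red for dexamethasone, with bars at the group medians. The red medians lie below the grey ones except for Klf7 in CER, where they were 233 and 230.3 CPM, and the points overlap in every region.

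Directions were also compared within the batches that the labels name, first for each member in the regions where it passed. Those pairs were called on the same libraries, so their agreement is partly set by the choice of pairs and is given as a description. The labels name 5 dates and 4 plates, shared by all regions. Each date or plate is counted once per member and region, so the counts are not independent. Within dates of punching, Klf9 and Klf15 each had the direction of the whole region in 32 of 32 combinations of a region and a date with at least 2 libraries per arm, Klf2 in 20 of 20, Klf7 and Klf3 each in 16 of 16, Klf10 in 12 of 12, Klf13 in 8 of 8 and Klf16 in 7 of 8. Within plates the counts were 32 of 32 for Klf9 and for Klf15, 20 of 20 for Klf2, 16 of 16 for Klf7 and for Klf3, 12 of 12 for Klf10, 7 of 8 for Klf13 and 8 of 8 for Klf16. Within dates the difference in mean log2 CPM ran from 0.24 to 0.73 for Klf9 and from 0.32 to 1.58 for Klf15. For Klf10 it ran from -1.30 to -0.27 within dates and from -1.53 to -0.08 within plates. Among the 31 pairs that did not pass, 102 of 124 combinations of a pair and a date had the direction of the whole region, as did 104 of 124 combinations of a pair and a plate. Klf2 in dCA1, for example, was at -0.26 in 1 date and -0.15 in 1 plate and above 0 in the others.

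The difference of the response between regions was tested itself, as a region-by-treatment interaction over all libraries. None of the 10 members passed (edgeR, 1.17% of 11053 genes passed), and none passed with limma voom and the animal as a block. Unadjusted, only Klf7 had a p below 0.05 (p = 0.00528, adjusted p = 0.215), at log2 differences from -0.41 in vDG to -0.11 in CER. For Klf15, which ran from 0.68 in PVN to 1.33 in CER, the interaction p was 0.0597 (adjusted p = 0.771). When each region was set against the mean of the other 7, Klf15 in CER was 0.36 ± 0.15 (SE) higher on the log2 scale (unadjusted p = 0.0166, adjusted p = 0.531) and in PVN it was -0.39 ± 0.15 (unadjusted p = 0.00968, adjusted p = 0.674). The smallest unadjusted p of the members in these contrasts was that of Klf6 in PVN (-0.34 ± 0.12, SE, unadjusted p = 0.00623, adjusted p = 0.530). Klf4 and Klf10 in dDG, Klf7 in vDG and CER and Klf13 in PVN were also below an unadjusted 0.05. No member passed in any of these 8 contrasts. The share of all genes that passed was 0.498% for CER, 0.235% for PFC, 0.163% for PVN, 0.118% for dDG, 0.0633% for dCA1, 0.0271% for AMY, 0.0271% for vCA1 and 0.00% for vDG. The difference of a call between regions, such as Klf7 in vDG and not in CER, is therefore not shown to be a difference in response.

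Levels without dexamethasone differed between regions for 9 of the 10 members, all but Klf4 (adjusted p = 0.336), in a fit with the animal as a block. Of all 10451 genes tested, 73.3% differed, so that share is close to the background. Klf13 had the smallest adjusted p (1.88e-32), with a mean of 366 ± 105 CPM (SD, n = 15) in dCA1 and 93.2 ± 22.9 CPM (SD, n = 14) in PVN. The order of Klf13 was dCA1, dDG, vCA1, PFC, vDG, AMY, CER and PVN, from the highest mean log2 CPM to the lowest. No step between neighbours in that order passed two-sided exact sign-flip permutation tests adjusted over all 70 neighbouring pairs of the 10 members, at a smallest adjusted p of 0.167. Unadjusted permutation p-values of Klf13 were 0.0120 from dDG to vCA1, 0.0168 from vCA1 to PFC and 0.0253 from AMY to CER.

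Klf9 in vehicle libraries was highest in dDG and dCA1, with means of 801 ± 127 CPM (SD, n = 15) and 777 ± 89.3 CPM (SD, n = 15). Next came vCA1 at 631 ± 88.0 CPM (SD, n = 14), vDG at 590.3 ± 112 CPM (SD, n = 15), PFC at 560.3 ± 98.2 CPM (SD, n = 15) and AMY at 534 ± 143 CPM (SD, n = 15). PVN at 507 ± 78.2 CPM (SD, n = 14) and CER at 499.8 ± 94.9 CPM (SD, n = 15) were lowest. Of the 7 neighbouring steps only that from dCA1 to vCA1 passed, with Klf9 higher in dCA1 in 13 of 14 animals by 0.30 ± 0.20 (SD) on the log2 scale (exact permutation p = 0.00061, adjusted p = 0.0427). That step was the only one of the 70 to pass. The summed level of 3 dentate granule cell markers also differed there, with a vehicle range of 468 to 1138 CPM (median 826) in dCA1 and 56.3 to 215 CPM (median 124) in vCA1. As in Klf9, dCA1 and dDG (median 654 CPM) were the highest of the 8 regions in these markers. Elsewhere the orders differed. The marker median was higher in vDG (279 CPM) than in vCA1, and higher in CER (149 CPM) and PVN (141 CPM) than in PFC (47.4 CPM) and AMY (97.7 CPM). The Klf9 means ran the other way in these comparisons. The part of these cells in the Klf9 level was not tested. The mean of dDG over dCA1 was 0.04, with Klf9 higher in dDG in 8 of 15 animals.

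Other members had other orders. Klf3 and Klf16 were highest in dCA1, at 88.6 ± 28.9 CPM and 65.0 ± 22.9 CPM (SD, n = 15 each), and lowest in PFC (44.8 ± 9.8 CPM, SD, n = 15) and in CER (16.7 ± 12.1 CPM, SD, n = 15). Klf6 was highest in PFC, at 104 ± 20.6 CPM (SD, n = 15), and lowest in dCA1, at 46.3 ± 12.8 CPM (SD, n = 15), so its order ran against that of Klf9 and Klf3 at dCA1 and dDG. The medians of vehicle dCA1, where library 4 stands apart, were 81.8 CPM for Klf3, 62.5 CPM for Klf16 and 339 CPM for Klf13, below each mean. Klf10 was also highest in PFC, at 21.7 ± 7.0 CPM (SD, n = 15), and lowest in PVN, at 4.0 ± 1.9 CPM (SD, n = 14). The level of Klf7 ran from 187 ± 28.5 CPM in dCA1 to 251 ± 35.0 CPM in CER (SD, n = 15 each). For Klf15 (30.6 ± 8.9 CPM in dDG to 41.3 ± 14.6 CPM in PVN) and Klf2 (22.5 ± 8.7 CPM in AMY to 30.8 ± 7.2 CPM in vDG) the regions passed at adjusted p of 0.0330 and 0.0382, and without the animal block neither passed (0.258 and 0.153).

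**Figure D5:**
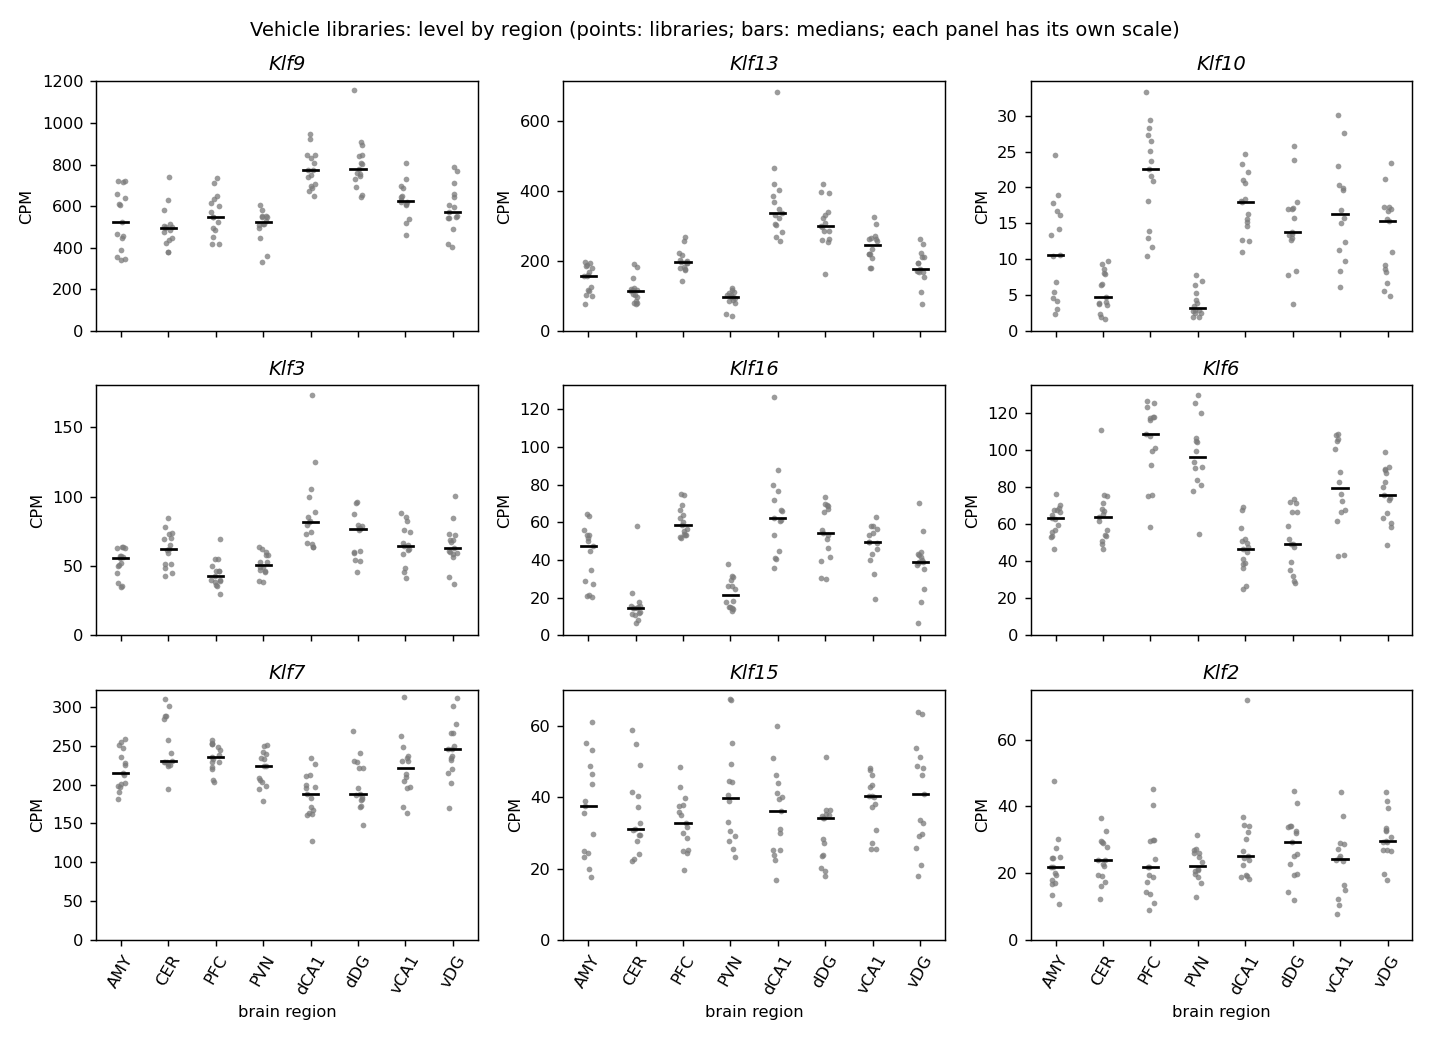
CPM (y axis, from 0, a scale of its own in each panel) of 9 members in the vehicle libraries (points) of each region (x axis), with bars at the medians. Klf9 and Klf13 are highest in dCA1 and dDG, where Klf6 is lowest, and the points of neighbours in each member's order overlap.

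Across the 16 group means of log2 CPM (8 regions in 2 arms), some members moved together. Klf9 and Klf2 had a Pearson r of 0.82 and Klf15 and Klf2 one of 0.81, while Klf9 and Klf7 had one of -0.91. Klf13 and Klf16 had an r of 0.79 and Klf6 and Klf3 one of -0.76. The 16 points share the treatment, the animals and the library scaling, so these values are descriptions over group means. Among the 7924 genes tested in all regions, the genes most like Klf9 were Net1 (r = 0.93), Sesn1 (0.93) and Tnik (0.92). The most like Klf15 were Wasf2, Zfp36 and Slc2a1 (each 0.96), and those most like Klf2 were Txnip, Lrp6 and Fkbp5 (each 0.93). For Klf7 they were Slc20a1 (0.91), Kifc3 (0.89) and Eogt (0.88), and for Klf6 Tox (0.96), Uggt2 (0.93) and Pgr (0.92). Wipf3, Prkca and 2010300C02Rik were most like Klf13 (0.97 to 0.98), Fbxl16, Lzts3 and Nfyb most like Klf16 (each 0.97) and Hexim1, Tmcc1 and Lix1l most like Klf3 (0.91 to 0.94).

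The rest of the family was taken as a list. Of 16 other KLF and SP genes 7 passed the filter somewhere, and none of their 37 pairs passed the test with edgeR or DESeq2, with 3 at an unadjusted p below 0.05. The smallest was that of Sp1, the ubiquitous GC-box activator, in vCA1, at -0.25 ± 0.10 (SE) on the log2 scale (unadjusted p = 0.0156, adjusted p = 0.159). Among 12 cofactors and turnover factors of KLF proteins, 93 pairs were tested and 2 passed, no larger a share than among all genes (3.70% to 6.18% by region), with 5 at an unadjusted p below 0.05. The 2 are named only to account for the count. Kat2b, a histone acetyltransferase, fell in PVN by 0.57 on the log2 scale (SE 0.13, adjusted p = 0.00324), and Ep300, another acetyltransferase, rose in CER by 0.30 ± 0.08 (SE, adjusted p = 0.0123), named here after its value was seen. Of the corepressors that the repressor members recruit, Sin3a, Sin3b and Ctbp1 passed in none of 8 regions and Ctbp2 in none of the 5 where it was tested. The smallest unadjusted p was 0.00949 for Ctbp2 (-0.51 in vCA1, adjusted p = 0.118) and 0.0268 for Sin3a (-0.34 in AMY, adjusted p = 0.257).

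Receptors upstream of Klf9 were 4 genes. Nr3c1, which encodes the glucocorticoid receptor, fell in all 8 regions, by log2 differences of -0.89 to -0.50, while Klf9 rose. The genes of the mineralocorticoid receptor (Nr3c2) and of both thyroid hormone receptors (Thra and Thrb) passed in none of the regions tested with edgeR. Their smallest unadjusted p was 0.0314, that of Nr3c2 in vDG. With edgeR 8 of the list's 31 pairs fell, all of them Nr3c1, beside 1.29% to 2.28% of all genes that fell by region. DESeq2 also called 8 pairs of the list.

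Of 9 amino acid breakdown genes linked to Klf15 in other tissues, 6 were tested and 10 of 41 pairs rose, with none falling, beside 2.33% to 3.90% of all genes that rose by region. Of the 10 pairs 8 are Gpt2, so the count is mainly that of 1 gene. Gpt2, the mitochondrial alanine aminotransferase, rose in all 8 regions, by 0.46 to 0.70 on the log2 scale (adjusted p of at most 0.0289). Dbt rose in dCA1 only (0.37 ± 0.11, SE, adjusted p = 0.0482) and Prodh, of proline breakdown, in vDG (0.65 ± 0.19, SE, adjusted p = 0.0378) of the 3 regions where it was tested. Both names were picked with their values known, and with the replicate number as a block neither passed (adjusted p = 0.132 and 0.0681). Bckdhb and Bckdk, of the branched-chain complex, passed in none of 8 regions. Gpt passed in none of 6, at log2 differences of -0.50 to -0.05 (smallest unadjusted p = 0.0116 in PFC). Over the list, 11 pairs were higher and 1 lower at an unadjusted p below 0.05. Bcat2, Bckdha and Tat were not tested. The median log2 difference of this list lay between -0.09 and 0.35 over the regions, that of the other KLF and SP genes between -0.20 and 0.05, that of the cofactors between -0.06 and 0.03, that of the receptors between -0.27 and 0.15 and that of the genes upstream of Klf2 between -0.18 and 0.01. Over all genes tested it lay between -0.02 and 0.00.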

How the data were processed

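The authors deposited 1 table of read counts per gene for all libraries. Per the submitters' processing notes, FastQC 0.11.4, cutadapt, UMI-tools 0.5.4, STAR 2.6.0a, featureCounts 1.6.4 and DESeq2 1.30.1 in R 4.0.5 were used, with mm10. Libraries were made with a forward 3′ end kit with molecular identifiers, per the labels' protocols, so a count stands for a tagged molecule near a transcript's 3′ end. The annotation, and whether counting used strand, are not given in the sources used here. The authors also deposited variance-stabilised log2 tables of 228 libraries, used here only to define the library set of an alternative.

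From the counts as deposited, each region was fitted with edgeR 4.0.16 (filterByExpr, TMM, glmQLFit, glmQLFTest; R 4.3.3), dexamethasone against vehicle, with Benjamini-Hochberg adjustment over all genes tested and a threshold of 0.05. The SE is the log2 difference over the square root of F. CPM use TMM factors over all libraries, and log2 CPM a prior count of 2. Library totals had a median of 742957 counts, and counts limit the precision of Klf4 and Klf10 most. The interaction and the vehicle levels were fitted over all regions, the latter with the animal as a block, and neighbouring vehicle levels were compared by exact sign-flip permutation in Python 3.11.15. Likeness is Pearson's r over the group means. The code was tested on simulated counts. Alternatives used DESeq2 1.42.0, limma 3.58.1 and sva 3.50.0.

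Named genes of a list are those called in at least 4 regions, or else the gene with the smallest p, with the exceptions stated. The members and lists were chosen with earlier results of these data known. Replicate numbers tie the arms by batch in the labels: of 115 same-numbered pairs of libraries, 115 shared a plate and 109 a date of punching. Deviations of same-numbered libraries from their group means had a mean correlation of 0.05 (vCA1) to 0.23 (dDG) by region, and that of other numbers was below 0 in every region. The fit with the replicate number as a block is given where it changes a call of a member or of a gene in the lists around the members. Among cell type markers it also changed calls not given above. For example, Ttr in PFC (0.56, adjusted p = 0.00686) and Dsp in dDG (0.52, adjusted p = 0.0338) were gained, and C1ql2 in vCA1 (0.77, adjusted p = 0.0682) was lost.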

Additional observations from a re-analysis of the deposited data

How the results depend on the processing

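Of the 36 calls among 67 pairs of a member and a region, 31 held in every alternative that tested them, 5 were lost in at least 1, and none changed direction. The lost calls were Klf2 in AMY (RIN, the RNA integrity number, as a covariate, 0.49, adjusted p = 0.0606; without libraries of RIN under 4, 0.48, adjusted p = 0.0655), Klf2 in vCA1 (dentate covariate, 0.59, adjusted p = 0.116), Klf3 in CER (surrogate variables, -0.33), Klf10 in dCA1 (no filter, dentate covariate) and Klf7 in vCA1 (dentate covariate). Another 9 pairs passed in some alternative. Of these, 7 passed with surrogate variables: Klf2 and Klf16 in dDG, Klf2 and Klf7 in dCA1, Klf7 in PVN, and Klf13 in AMY (0.33, adjusted p = 0.00722) and CER (0.31, adjusted p = 0.00493). Klf16 in AMY passed with date and plate as factors, and Klf2 in CER with the replicate block, among others. With surrogate variables dDG had 5 calls of members in place of 3, while calls over all genes rose from 316 to 557 of 8548. In dCA1 those over all genes rose from 408 to 782 of 8715. DESeq2 also called 36 pairs. The minimum of 10 counts in every library left 15 pairs untested. The choroid plexus level as a covariate changed no call. The alternatives that leave out libraries by RIN or markers, or add a marker level, were chosen after seeing the data. The cause of these changes was not tested.

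With the replicate block, Klf2 in vCA1 was lost (0.64, adjusted p = 0.0537), where calls over all genes went from 497 to 451 of 9126. Klf2 in CER was gained (0.48, adjusted p = 0.0154), where calls over all genes went from 558 to 667 of 9035. The block changed no other call of a member. Without the animal block, 7 of 10 members differed in vehicle level in place of 9, beside 7659 of 10451 genes (7662 with the block). With upper-quartile scaling 8 members did, beside 7674 of 10451 genes, and with no filter 8, beside 9868 of 20699 genes. The interaction stayed at 0 of 10 members in its alternatives, with the smallest adjusted p between 0.190 and 0.364. Depth limits Klf4 and Klf10 most.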
